A study of Mus musculus with 2 samples.

Results

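Cmip was 1 gene of the 49997 in the mouse RefSeq gene table. It was chosen here because the autosomal 100 kb bin with the highest 5-hydroxymethylcytosine (5hmC) signal in mouse kidney lies inside it. The gene was taken as chromosome 8, 119780001 to 119984000 of build mm9, an interval of 204 kb whose edges are rounded, and 300 kb on either side were examined with it. Kidney DNA came from male C57BL/6 mice, an inbred laboratory strain, at 6 weeks of age. The labels name no treatment and no genetic change, and they do not say how many animals were used or whether they were pooled. An antibody against 5hmC pulled down marked DNA fragments for 1 hMeDIP library (hydroxymethylated DNA immunoprecipitation sequencing), and 1 input library was made from kidney DNA without antibody.

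Cmip encodes the c-Maf inducing protein, an adaptor with a pleckstrin homology domain and leucine-rich repeats. In the kidney it is known from idiopathic nephrotic syndrome, where its level in podocytes was found raised, and it has been reported to bind the kinase Fyn and filamin A. The 5hmC mark is made by TET enzymes from 5-methylcytosine. It is commonly found over the bodies of transcribed genes and is commonly low at CpG-rich promoters, which tend to carry little 5-methylcytosine.

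The libraries held 11424027 hMeDIP and 8316507 input fragments. The ratio used throughout is the share of all hMeDIP fragments in a stretch over the share of all input fragments there, with each fragment placed by its midpoint. A ratio of 1 is the mean over the genome of these libraries. Each ratio is followed by its 95% exact conditional binomial (Clopper-Pearson) interval, which covers counting error only. It holds no spread between libraries, and without molecular identifiers repeated reads of a molecule cannot be recognised. No library was replicated, and the gene was chosen by this ratio, so the ratios below are a description and carry no test.

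RefSeq lists 2 starts for Cmip, both on the plus strand of GRCm38.p6. The 250 bases before each are shown 5' to 3' to contrast their content of the CpG dinucleotide, the usual site of 5hmC, with every CG in capitals. They lie at chr8:117256769-117257018 for the outer start and at chr8:117348920-117349169 for the inner start. Those positions belong to another build than the mm9 positions of the libraries and were not converted.
Outer start: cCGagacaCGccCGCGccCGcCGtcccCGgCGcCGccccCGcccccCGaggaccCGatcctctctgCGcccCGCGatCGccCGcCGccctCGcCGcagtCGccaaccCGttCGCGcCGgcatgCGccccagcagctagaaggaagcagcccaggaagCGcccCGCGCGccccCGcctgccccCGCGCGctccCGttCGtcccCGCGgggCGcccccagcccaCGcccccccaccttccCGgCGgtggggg
Inner start: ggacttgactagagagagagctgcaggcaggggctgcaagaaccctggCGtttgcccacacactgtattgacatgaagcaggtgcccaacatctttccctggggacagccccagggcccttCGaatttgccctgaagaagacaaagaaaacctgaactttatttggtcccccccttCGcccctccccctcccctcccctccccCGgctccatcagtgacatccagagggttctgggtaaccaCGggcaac
The outer sequence holds 42 CG (the motif CG reads the same on both strands) and is 82.0% G or C. The inner sequence holds 5 CG and is 58.4% G or C. Over 32851 promoter sequences of the same length the median was 6 CG, 0.865% held at least 42 and 55.6% held at least 5.

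The interval as a whole held 6259 hMeDIP and 735 input fragments, for a ratio of 6.20 (5.74 to 6.70). Its hMeDIP density was 30.7 fragments per kb, against 4.55 over the autosomes. Input density was close to that of the autosomes, at 3.60 against 3.27 fragments per kb. The ratio was low in the first 2 kb, highest from 20 to 120 kb, stood lower from there to 180 kb and was lower still towards the 3' end.

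**Figure D1:**
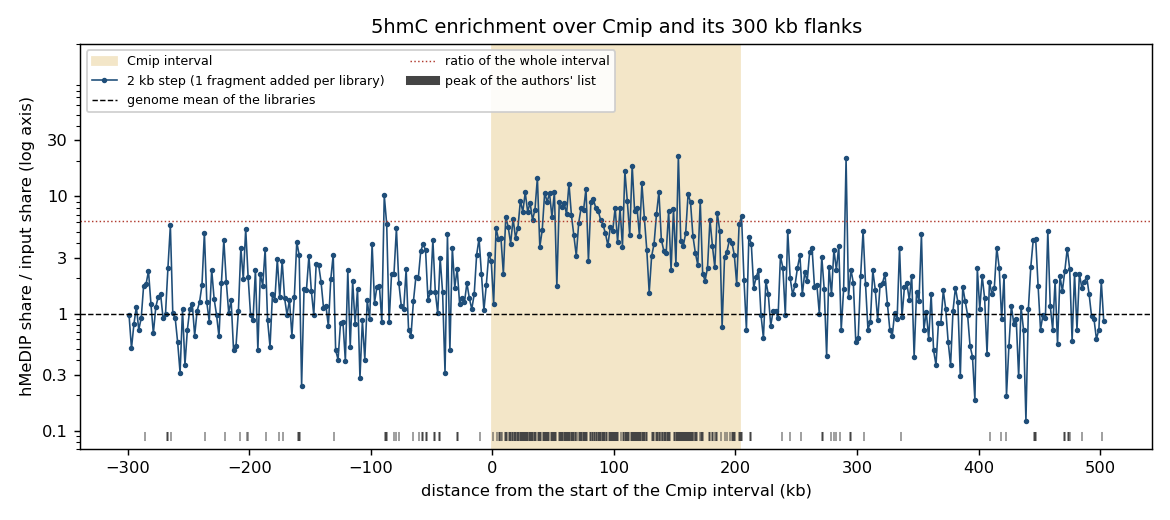
Ratio of hMeDIP to input share (log axis) in 2 kb steps over Cmip and 300 kb on either side, against the distance from the start of the interval in kb, with 1 fragment added to each library. Dark bars at the bottom are peaks of the authors' list; the shaded interval stands at 6.20 as a whole and its flanks at 1.66 and 1.59. The isolated high step at 290 kb has 0 input fragments.

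At the 5' start few hMeDIP fragments were found. The first 2 kb held 9 hMeDIP and 5 input fragments, for a ratio of 1.31 (0.394 to 4.98), which cannot be told apart from the genome mean at this depth. The 2 kb before it held 53 and 13 fragments, a ratio of 2.97 (1.60 to 5.93). From 2 to 10 kb the ratio was 4.30 (2.93 to 6.51), and from 10 to 20 kb it was 6.06 (4.30 to 8.77). The interval of the first 2 kb overlaps those of both the 2 kb before it and the 8 kb after it. Overlap alone does not settle whether the ratios differ, and the drop at the start was not tested.

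In steps of 500 bp the fall in hMeDIP fragments was narrow. The last 500 bp before the interval held 19 hMeDIP fragments and 1 input fragment. The first 500 bp inside it held 7 and 2 fragments. From 500 to 1500 bp there were 0 hMeDIP and 2 input fragments, for a ratio of 0 with an upper limit of 3.88. The longest gap between neighbouring hMeDIP midpoints in the whole interval fell here, at 119780268 to 119781805. It was 1537 bp long, against 1347 bp for the next longest and a median of 15 bp, and 3 input fragments lay inside it. Input was thin there too, and its part in the low value was not tested. RefSeq's outer start could not be placed in this window, because its position is known here only on the other build. A step with 0 hMeDIP fragments also lay outside the interval, 7 to 6.5 kb before it. That step held 4 input fragments and had an upper limit of 1.10.

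**Figure D2:**
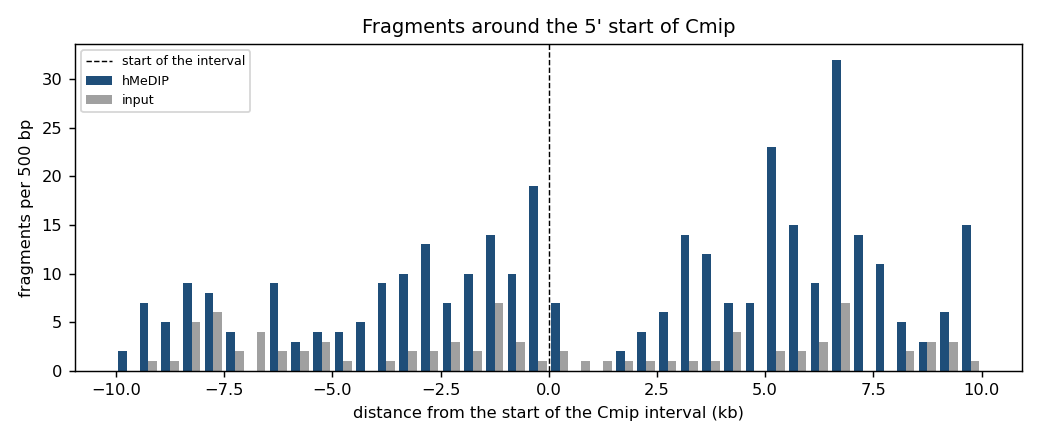
Fragments per 500 bp of the hMeDIP library (blue) and the input library (grey) within 10 kb of the start of the Cmip interval (dashed line). The hMeDIP library has 0 fragments from 500 to 1500 bp, where input has 2, and reaches 32 in 500 bp further inside, where input has 7. It also has 0 in the step from 7 to 6.5 kb before the start, where input has 4.

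Across the gene body the antibody signal was nearly unbroken. Of 102 steps of 2 kb, 96 (94.1%) had an interval above 1 and 0 had an interval below 1. Over all autosomal steps with at least 2 input fragments 11.0% lay above 1 and 15.9% below. The rule chose the gene on this ratio, so the count only describes it. The steps held 9 to 125 hMeDIP fragments with a median of 60.5, and 2 to 18 input fragments with a median of 7. Input counts had an SD of 2.85 between steps, near the 2.68 that counting alone gives. The hMeDIP counts had an SD of 24.1, against 7.83 from counting, so their rises and falls along the gene were larger than counting error.

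**Figure D3:**
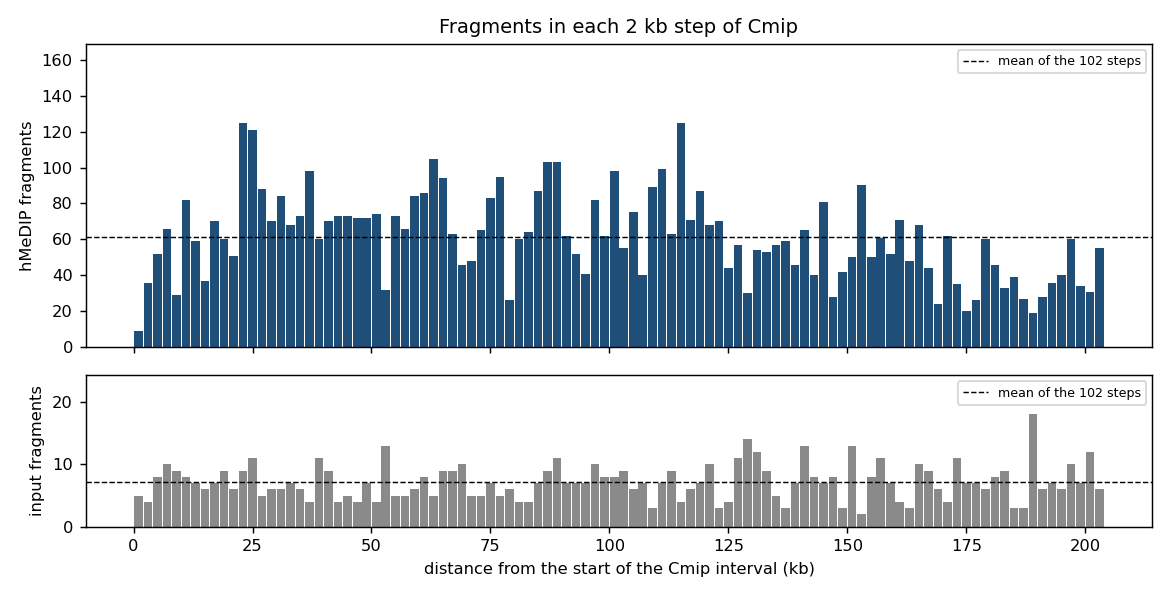
Fragments in each of the 102 steps of 2 kb along Cmip, for hMeDIP (upper panel) and input (lower panel), with the mean of the steps as a dashed line. The hMeDIP counts run from 9 to 125 and thin out towards the 3' end, whereas input runs from 2 to 18.

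The 5 highest steps were ranked with 1 fragment added to each library. The first, at 152 to 154 kb (119932001 to 119934000), held 90 hMeDIP and 2 input fragments, for a ratio of 32.8 (8.81 to 275). The second, at 114 to 116 kb, held 125 and 4, a ratio of 22.7 (8.67 to 84.8). The third, at 108 to 110 kb, held 89 and 3, a ratio of 21.6 (7.15 to 107). All of these had fewer input fragments than the median step. The fourth, at 36 to 38 kb, held 98 and 4 fragments, and the fifth, at 122 to 124 kb, held 70 and 3. Their ratios were 17.8 (6.75 to 66.8) and 17.0 (5.58 to 84.4). The intervals of the 5 steps are wide and overlap, and the order among the steps was not tested. The hMeDIP counts alone gave another order, because the step at 22 to 24 kb also held 125 hMeDIP fragments but had 9 in input.

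The 5 lowest steps were scattered from the 5' start to the 3' end. The lowest, at 188 to 190 kb (119968001 to 119970000), held 19 hMeDIP and 18 input fragments, for a ratio of 0.768 (0.382 to 1.55). The first step of the gene, given above, came next. The step at 128 to 130 kb held 30 and 14 fragments, a ratio of 1.56 (0.802 to 3.18). The step at 52 to 54 kb, in the otherwise highest part of the gene and with 52.0% of its bases in peaks, held 32 and 13, a ratio of 1.79 (0.915 to 3.72). The step at 200 to 202 kb held 31 and 12, a ratio of 1.88 (0.939 to 4.02). Apart from the first step, these had more input than the mean step of 7.21 fragments as well as fewer hMeDIP fragments.

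Breaks in the raised stretch were called dips where the ratio of neighbouring 2 kb steps, with 1 fragment added, fell under 0.5 of the whole-gene ratio. There were 12 dips made of 16 steps, which is 15.7% of the gene's steps. Over the autosomes 94.1% of steps lay under the same limit. Of the dips, 8 lay beyond 102 kb from the start and 5 of these in the last 40 kb. The longest, at 172 to 178 kb (119952001 to 119958000), held 81 hMeDIP and 25 input fragments, for a ratio of 2.36 (1.49 to 3.86). The next, at 128 to 132 kb (119908001 to 119912000), held 84 and 26, a ratio of 2.35 (1.5 to 3.81). The last of more than 1 step, at 188 to 192 kb (119968001 to 119972000), held 47 and 24, a ratio of 1.43 (0.854 to 2.44).

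Most dips were shallow against the genome. In 8 of the 12 the interval still lay above 1, in 4 it spanned 1 and in 0 it lay below 1. In 8 of them the upper limit was under the whole-gene ratio, and the others cannot be told apart from the gene's own level by counting. The dips were picked as low against that same ratio, so the 8 are a description and no test. The count of dip steps depends on the setting. It was 34 steps with 5 fragments added to each library and 6 with a limit at a ratio of 2. In steps of 5 kb 5.0% of steps fell under the limit. With the mean input of the gene under every step there were 14 steps, and 13 of them were among the 16.

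In steps of 20 kb, which hold 62 to 80 input fragments inside the gene, the levels formed a plateau and a descent. The first 20 kb stood at 4.99 (3.89 to 6.47). The next steps, up to 120 kb, were at 8.59 (6.74 to 11.1), 8.09 (6.23 to 10.7), 7.50 (5.85 to 9.75), 7.04 (5.54 to 9.07) and 8.85 (6.88 to 11.6). These 5 intervals all overlap, which does not settle their order, and the order was not tested. From 120 to 180 kb the steps were at 5.02 (3.95 to 6.45), 5.09 (4.02 to 6.51) and 4.98 (3.84 to 6.53). The step at 180 to 200 kb was at 3.42 (2.67 to 4.44).

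Pooled, the 100 kb from 20 to 120 kb, which is the bin that chose the gene, stood at 8.0 (7.16 to 8.96). The 60 kb after it stood at 5.03 (4.37 to 5.81), and the remainder of the interval at 3.43 (2.75 to 4.33). The bin was chosen as the highest, so its place above the rest of the gene is set by that choice. Moved along the locus in 2 kb shifts, the highest 100 kb window was this same bin. In the ranking of 23403 autosomal bins it was first, and the second, on chromosome 15 at 58800001 to 58900000, had a ratio of 6.46 (5.81 to 7.19). The bin before it, of which only the last 20 kb lie in Cmip, ranked 956 at 2.63 (2.34 to 2.97). The bin after it, which holds the rest of the gene and 16 kb beyond, ranked 67 at 4.36 (3.90 to 4.88). All 10 of the 20 kb steps inside the gene had an interval above 1, against 24.4% of 116224 autosomal steps. The lowest of them still lay above 97.7% of those steps.

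**Figure D4:**
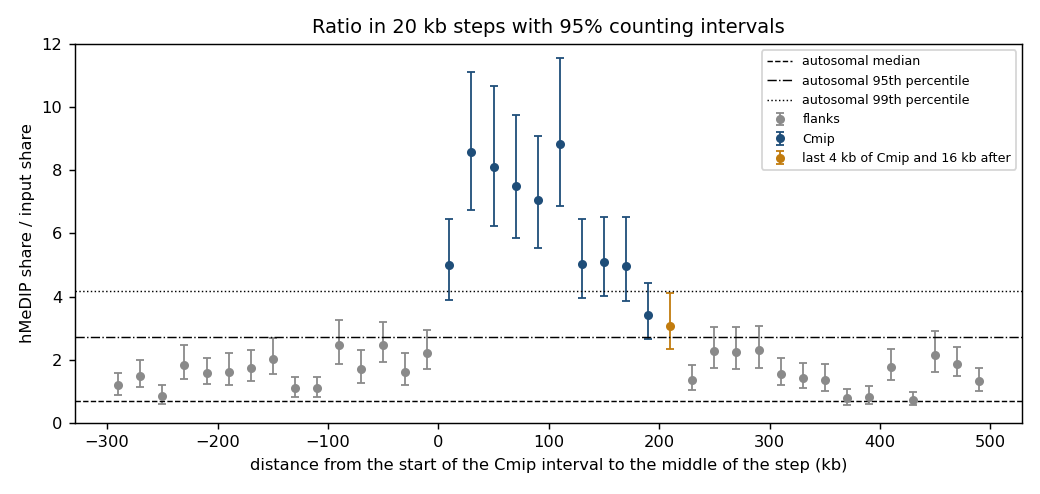
Ratio of hMeDIP to input share in 20 kb steps, with 95% counting intervals as bars, over Cmip (blue), its flanks (grey) and the step that holds the last 4 kb of the gene (orange). The steps of the gene run from 3.42 to 8.85 and lie above the autosomal 95th percentile of 2.73, whereas those of the flanks run from 0.736 to 2.48.

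The authors' peak list, made with the caller MACS, held 60 peaks that touched the interval, of 92654 in all. They covered 80.8% of its length, against 5.06% of the autosomes. Their median width was 1955 bp, against 1152 bp in the list, and their median score, the authors' own value per peak, was 269, against 85.7. Of the 60 peaks, 7 (11.7%) were at least 5 kb wide, against 0.610% of the list. Further, 13 were among the 1% of the list with the highest scores, a class that holds 0.999% of all peaks. Ratios of single peaks ran from 3.64 to 18.9 with a median of 6.86, leaving out 2 peaks with 0 input fragments.

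Of the 5 peaks with the highest scores, 4 are described first. The top one, with a score of 2318, had rank 9 in the whole list. It spanned 119892849 to 119902001, 9153 bp at the downstream edge of the plateau, with 392 hMeDIP and 31 input fragments, at a ratio of 9.21 (6.38 to 13.7). The peak at 119801607 to 119808913 (7307 bp, score 1572) opened the plateau, with a ratio of 8.62 (5.97 to 12.9). The peak at 119838465 to 119844212 (5748 bp, score 1487) had a ratio of 10.8 (6.73 to 18.6). The peak at 119874930 to 119883720 (8791 bp, score 1361) had a ratio of 5.84 (4.21 to 8.29). These 3 lay within the plateau, and the top one crossed its downstream edge by 2 kb. Apart from the widest peak, the remaining peaks of 5 kb or more also lay within it, 119820847 to 119826840 at 12 (7.16 to 21.8) and 119826987 to 119832612 at 9.46 (5.60 to 17.2).

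The widest peak lay outside the plateau. It spanned 119930435 to 119944736, or 150 to 165 kb from the start, was 14302 bp wide and had rank 3 in the list by width and rank 26 by score. With 436 hMeDIP and 51 input fragments its ratio was 6.22 (4.65 to 8.49), near that of the whole gene. It was not even inside. In 28 steps of 500 bp it held 4 to 34 hMeDIP fragments with a median of 15, an SD of 6.73 against 3.91 from counting. The highest lay 3000 bp and the lowest 8000 bp from its upstream edge. It holds the highest 2 kb step of the gene, whose upstream neighbour at 150 to 152 kb was a dip with 50 hMeDIP and 13 input fragments, at a ratio of 2.80 (1.5 to 5.62). The widest peak of the gene was thus not its highest.

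**Figure D5:**
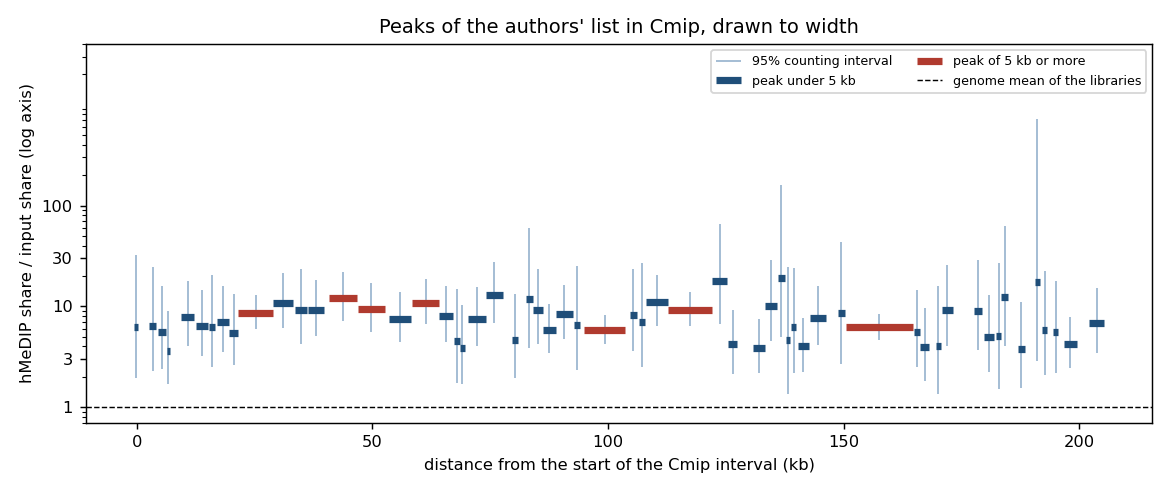
Peaks of the authors' list in Cmip, each drawn to its width at its ratio of hMeDIP to input share (log axis), with the 95% counting interval as a thin line; 2 peaks with 0 input fragments are left out. The 7 peaks of 5 kb or more (red) stand between 5.84 and 12, and 6 of them end by 122 kb.

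Breaks between the peaks were short. Of 59 gaps between neighbouring peaks 39 were under 500 bp, the median was 263 bp and 6 were over 2 kb. Joining peaks within 1 kb left 14 blocks that covered 86.3% of the interval. The longest blocks were 47741 bp (119859595 to 119907335), 36889 bp (119820847 to 119857735) and 30258 bp (119789493 to 119819750). The longest gap, 4424 bp at 173 to 178 kb, coincided with the longest dip. Outside the peaks the 39226 bp left in the interval had a ratio of 1.36 (1.12 to 1.66), close to the sequence outside peaks in the flanks, at 1.33 (1.23 to 1.44) before and 1.30 (1.21 to 1.41) after. Over the whole genome the ratio outside peaks was 0.757 (0.757 to 0.758). The peaks were called on the same signal, so sequence outside them was chosen for a lower signal.

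In steps of 20 kb the 5' edge was steeper than the 3' edge, a contrast that was not tested. Steps of 2 kb were uneven at both edges. They went from 1.31 in the first 2 kb to 6.55 (2.35 to 25.3) in the next. Past the 3' end they went from 8.74 (2.76 to 44.3) at 204 to 206 kb to 0.728 (0.272 to 1.95) at 208 to 210 kb. The contrast is thus given for 20 kb steps only. Across the start the ratio went from 2.22 (1.70 to 2.93) in the last 20 kb outside to 4.99 in the first 20 kb inside and 8.59 in the next. At the other end the last 20 kb of the gene held 369 hMeDIP and 78 input fragments, for a ratio of 3.44 (2.69 to 4.46). The first 20 kb after it stood at 2.30 (1.72 to 3.12). Their interval overlaps that of the last 20 kb of the gene, which does not settle whether they differ, and the difference was not tested. A peak at 119982097 to 119985241 crossed the end of the interval, with 84 and 9 fragments and a ratio of 6.79 (3.41 to 15.4). The first 4 kb after the end were at 3.90 (2.03 to 8.24), and at 16 to 36 kb after it the ratio was 1.36 (1.03 to 1.82).

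Both flanks stood above the genome mean and far below the gene. The 300 kb before it held 2545 hMeDIP and 1118 input fragments, for a ratio of 1.66 (1.54 to 1.78). The 300 kb after it held 2487 and 1142, a ratio of 1.59 (1.48 to 1.70), and the intervals of the flanks overlap. In each the 100 kb next to the gene were higher, at 2.12 (1.88 to 2.40) before and 2.08 (1.84 to 2.36) after. The outer 200 kb were at 1.44 (1.32 to 1.57) and 1.37 (1.26 to 1.49). Among steps of 2 kb with at least 2 input fragments, 34 of 146 before and 30 of 147 after had an interval above 1, or 23.3% and 20.4%. Over all such autosomal steps the share was 11.0%. Besides the peaks that touch the interval, the list had 25 peaks before and 22 after. With the outer parts of those that cross its edges, peaks covered 10.1% and 8.25% of the flanks. None reached 5 kb, and the widest were 2758 and 2239 bp. On GRCm38.p6 RefSeq places 4 other genes inside Cmip, the miRNA genes Mir7077 and Mir7078 and the genes Gm51554 and Gm39260. Their mm9 positions were not used here, so no step was assigned to them.

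Among 11556 other autosomal windows of 204 kb with at least 50 input fragments, 0 had a higher ratio than the interval. Their median was 0.780 and their 99th percentile 3.25. The 3 highest were taken for comparison. Chromosome 5, 143412001 to 143616000, stood at 5.45 (4.83 to 6.16), but 4 of its 10 pieces of 20 kb had 0 input fragments and its interval overlaps that of Cmip. Chromosome 5, 125460001 to 125664000, was at 5.13 (4.73 to 5.58) and chromosome 8, 34884001 to 35088000, at 4.91 (4.55 to 5.31). In these last windows 87 and 80 of 102 steps had an interval above 1, peaks covered 62.4% and 63.6%, and their lowest 20 kb pieces were both at 2.16, against 3.42 in Cmip. Cmip was chosen for the highest bin, so its place at the top is no independent evidence.

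The strand of fragments and the number of reads at a position were not used by the ratio. In Cmip 46.6% (45.4 to 47.9, exact Clopper-Pearson) of hMeDIP fragments were on the plus strand, against 50.02% in the whole library, and 52.7% (49.0 to 56.3) of input fragments. Of 10 pieces of 20 kb, 8 were under 50% and 3 had an interval below it, against 15.4% of 4140 autosomal pieces with at least 300 hMeDIP fragments. The lowest, at 80 to 100 kb, had 286 plus and 430 minus fragments, or 39.9% (36.3 to 43.6). Windows of the same length with at least 500 hMeDIP fragments also varied widely, with 95% of them between 44.7% and 55.2% and 10.8% of 7441 below the value of Cmip. They were not matched to the 6259 hMeDIP fragments of Cmip, and a window with fewer fragments has a larger counting error. The part of counting error in their spread was not tested, so the comparison does not show whether the share in Cmip is usual at its depth. Positions with more than 1 read made up 2.46% (2.09 to 2.88) of hMeDIP positions in Cmip, against 1.33% in the library, and 0.136% (0.00344 to 0.756) of input positions. Of the windows 0.578% had a larger share of repeated hMeDIP positions. The fragment density of Cmip is higher as well, and its part in the repeats was not tested. No position in the gene held more than 3 hMeDIP reads, and the ratio weighted by reads was 6.27.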

How the data were processed

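Per the submitters' processing notes, CASAVA and Bowtie 1.0.0 were used with build mm9. For settings and filters, nothing is given in the sources used here. The authors deposited 1 position file per library with a read count on each line. Nearly every line spans 350 bp, and a line was taken here as 1 fragment, a reading made from the values. Peaks were called with MACS, per the file headers. The score of each peak is the authors' deposited value, at least 50. No control or threshold of the caller is given in the sources used here.

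Fragments were counted by midpoint with Python 3.11.15, numpy 2.4.6, pandas 2.3.3 and scipy 1.17.1. Steps were 2 kb from the start of the interval, and background steps needed at least 2 input fragments per 2 kb, 10 per 20 kb and 50 per 100 kb or longer window. Ranks and dips used 1 fragment added to each library. A fragment count per 2 kb of about 7 in input leaves single steps imprecise. The intervals were tested on simulated data, but the outcome is not given here. Named places were the 5 highest and 5 lowest steps, dips of 2 or more steps, the 5 peaks of highest score and those of 5 kb or more. The 3 highest other windows were taken as most like the gene. The gene, its interval and these lists were chosen with earlier results of these data known. Promoter sequences and genes inside Cmip are from RefSeq GRCm38.p6. Genes of the protein's partners were not measured, because no mm9 annotation was used here. Alternatives were other scalings, read weights, 200 bp fragments, shifted or larger steps, other pseudocounts and other peak sets.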

Additional observations from a re-analysis of the deposited data

How the results depend on the processing

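No paired analysis was possible because each group has 1 library, and for the same reason no library could be left out. Of 51 alternative values 36 kept within the interval of the main value or within 1.5 times the main count, and 15 moved. Scaling to the fragments outside peaks multiplies every ratio by 1.32, which gave 8.18 for the gene, 10.6 for the top 100 kb bin, 4.55 for the last 20 kb and 2.19 and 2.09 for the flanks before and after. Centring on the median 100 kb bin multiplies every ratio by 1.34 and gave 8.28, 10.7, 4.6, 2.21 and 2.12. With fragments outside peaks only, the gene stood at 1.36 and the top bin at 1.39 (0.891 to 2.20). The peaks were called on the same signal, so the sequence left outside them was chosen for a lower signal. Dips made up 5.0% of 5 kb steps, 34 steps with a pseudocount of 5 and 6 steps under a ratio of 2. The mean input for dips and a minimum of 5 input fragments for raised steps (92.8% raised) were chosen after seeing the data. The rank of the gene among windows of its length stayed at 1 in the 4 alternatives run. Scaling to the fragments outside peaks is 1 of these and cannot change a rank. Nor can it change the count of dip steps, whose limit follows the whole-gene ratio. Both values are counted among the 36 all the same. The 5' start rests on 9 and 5 fragments, and no alternative moved it out of its wide interval.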

Other observations

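The highest step in the flanks, chosen after its value was seen, lay 290 to 292 kb from the start of the interval, at 120070001 to 120072000. It held 28 hMeDIP fragments and 0 input fragments, so no ratio is given beyond the lower limit of its counting interval, 5.17, and no peak of the authors' list touched it. Upstream, the highest step was at 119690001 to 119692000 with 27 hMeDIP fragments and 1 input fragment, a ratio of 19.7 with a counting interval of 3.24 to 805, and the widest peak of that flank (119690837 to 119693594, 2758 bp) covered part of it. That peak had a ratio of 8.59 (3.48 to 27.4).

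The plus-strand share of the hMeDIP library was also counted in each flank. It was 49.6% (47.6 to 51.5) in the 300 kb before the gene and 46.8% (44.8 to 48.8) in the 300 kb after it, against 50.6% (47.7 to 53.6) and 51.1% (48.1 to 54.0) in input. The downstream value is near that of Cmip itself. The hMeDIP intervals of the flanks overlap, and the difference between the flanks was not tested.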
